A study of Drosophila melanogaster with 21 samples.

Results

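The imaginal disc growth factors are a small family of secreted proteins of Drosophila, and the 6 genes Idgf1 to Idgf6 were followed here in every RNA-seq library of a study of U-shaped (Ush), a zinc finger cofactor of GATA transcription factors. The members were taken by their names, and all 6 of 6 were found among the 17737 genes of each of 2 tables of normalised read counts. The study used S2 cells, a line derived from embryonic hemocytes (the blood cells of the fly), for which the methods name the S2[Cas9] line, and added double-stranded RNA 4 days before the RNA was isolated. In the first table, cells had received dsRNA against all isoforms of ush (dsUsh), dsRNA against dMi-2 (dsMi-2), which encodes the chromatin remodelling ATPase of the dNuRD complex, or a non-targeting dsRNA against EGFP (dsEGFP), with 3 libraries each. In the second, which was normalised separately, 4 libraries came from cells that had received dsRNA against isoform B of ush alone (dsUsh-B) and 4 from their own dsEGFP control. Every group, controls included, had thus received a dsRNA, and all values concern 1 cell line in culture.

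Idgf proteins belong to the chitinase-like family. They have the fold of a chitinase but lack catalytic activity, because a residue of the active site is replaced. They were named for promoting the growth of imaginal disc cells in culture together with insulin, and they are released into the hemolymph by the fat body and by hemocytes. Members of the family are also known to take part in the formation of the chitin-containing cuticle. Idgf6 was first described as DS47, a glycoprotein secreted by S2 cells and macrophages. It is listed in RefSeq under the further name Cht13, and Idgf5 under Cht14. In the RefSeq gene table (Release 6 plus ISO1 MT), Idgf1, Idgf2 and Idgf3 lie next to each other on chromosome arm 2L, Idgf4 lies on X, and Idgf5 and Idgf6 lie apart from each other on 2R. Idgf1 has 1 annotated transcript, Idgf2 has 3, Idgf3 has 4, Idgf4 has 3, Idgf5 has 1 and Idgf6 has 2. The counts pool the isoforms of a gene. CG5888 overlaps Idgf1 and Idgf2, and Idgf6 lies within the span of Pgant9, which the tables list as CG30463. Whether reads were counted by strand is not given in the sources used here, so reads of such overlapping genes may not be kept apart.

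The values are reads per gene divided by 1 size factor per library. They are compared below between groups for the same gene, and not between genes, because no transcript lengths were used. Libraries of the first table held 21366051 to 26101822 reads on genes, and those of the second 46181614 to 59387417. Differences were tested with limma on log2(normalised count + 1), two-sided, with Benjamini-Hochberg adjustment over all genes with a mean of at least 5 (9132 in the first table, 9648 in the second). A gene passed the threshold at an adjusted p under 0.01 in the first table and under 0.05 in the second. The level of Mi-2 itself averaged 1281 ± 248 in dsMi-2 cells against 4979 ± 618 in dsEGFP cells (SD, n = 3 each), a log2 fold change of -1.97 (limma adjusted p = 6.93e-05). The ush transcript averaged 3747 ± 378 in dsUsh cells against 4665 ± 682 in dsEGFP cells, a log2 fold change of -0.31 that overlapped the controls (limma adjusted p = 0.0978, and 0.00702 once the replicate number was a block). For dsUsh-B cells, where the counts pool all isoforms, it had a log2 fold change of -0.11 (limma adjusted p = 0.927). At the protein level, the paper reports that dsRNA against all isoforms abolished the signals of both major Ush bands on a Western blot. It also reports that dsRNA against isoform B efficiently depleted the slower migrating band. Protein was not measured in these libraries.

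Most of the reads fell on 4 members. In dsEGFP cells of the first table Idgf6, Idgf3, Idgf1 and Idgf2 had 80522, 50854, 17571 and 12586 reads over the 3 libraries, while Idgf4 had 9 reads and Idgf5 had 1. The same 4 genes held nearly all Idgf reads in every group of both tables. Control libraries differed in how steady each gene was. The coefficient of variation among the 3 dsEGFP libraries was 5.51% for Idgf6, 21.0% for Idgf3, 21.9% for Idgf2 and 33.1% for Idgf1.

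**Figure D1:**
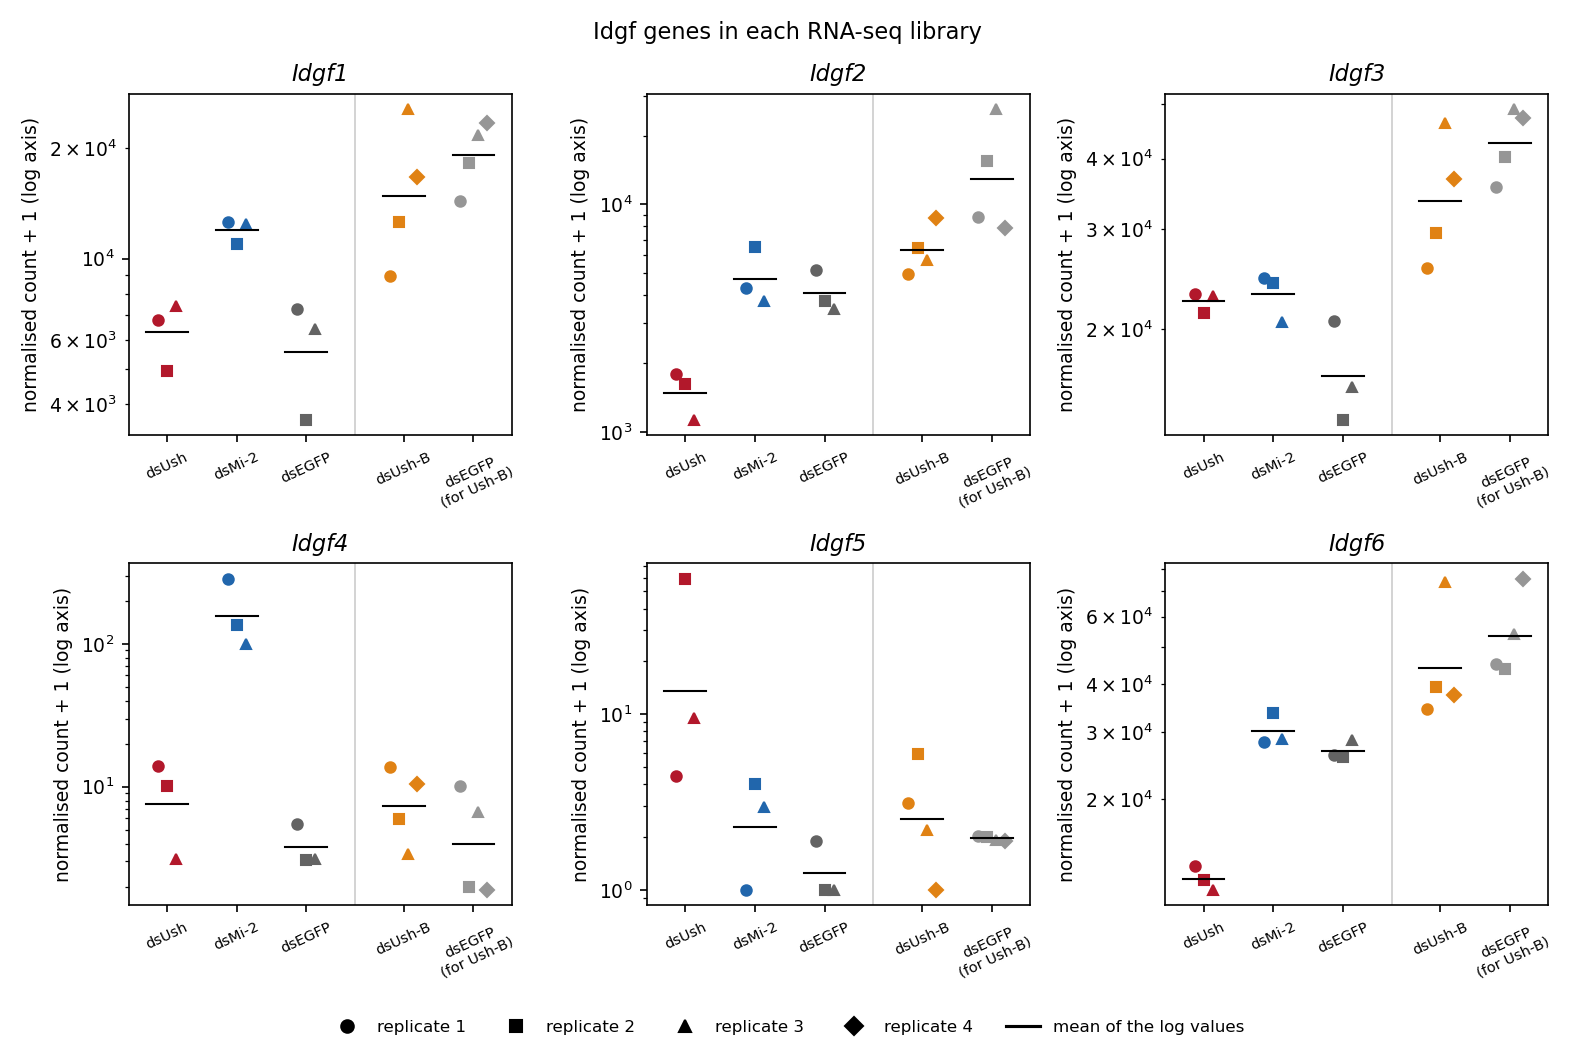
Normalised count + 1 (log axis) of each Idgf gene in each of the 17 libraries, where the first table stands left of the grey line (dsUsh, dsMi-2, dsEGFP) and the second right of it (dsUsh-B, dsEGFP for Ush-B), symbols give the replicate number and bars the mean of the log values. Idgf2 and Idgf6 lie lower in all 3 dsUsh libraries than in any dsEGFP library, and Idgf4 lies higher in all 3 dsMi-2 libraries.

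Depletion of all Ush isoforms was compared with control cells first. Idgf2 and Idgf6 fell, and the other 4 members did not pass the threshold. These 2 of the 6 members stood against a background of 17.2% of all tested genes past the threshold in either direction and 4.84% past it as lower. With the replicate number as a block the same 2 members passed, beside 28.5% of all tested genes. The ranges of the groups did not overlap for 4 of the 6 members (Idgf2, Idgf3, Idgf5 and Idgf6), where this held for 43.4% of all tested genes. Idgf5 met the filter on the mean only through its dsUsh libraries, so its place among these 4 was in part set by the filter.

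Idgf6, the member with most reads in control cells, had normalised counts of 13397.8, 12325.3 and 11619.2 in dsUsh replicates 1, 2 and 3, against 26195.8, 25830.4 and 28557.4 in dsEGFP replicates 1, 2 and 3. The groups were far apart, with every dsUsh library well below every dsEGFP library. The log2 fold change was -1.11 (standard error 0.11, limma adjusted p = 6.97e-05), which is 2.16-fold lower in dsUsh cells. In bulk RNA, fewer cells that express a gene and less of its RNA per cell cannot be told apart. CG30463 (Pgant9), a gene for an enzyme of O-linked glycosylation whose annotated span holds Idgf6, went the other way, with 362.0, 1055.7 and 427.9 normalised counts in dsUsh cells and 5.43, 4.17 and 1.07 in dsEGFP cells. This was a log2 fold change of 7.06 (limma adjusted p = 1.03e-05). Over the 3 dsUsh libraries CG30463 had 1747 reads, beside 37166 reads of Idgf6. Its part in the Idgf6 values was not tested.

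Idgf2, the middle gene of the cluster on 2L, had normalised counts of 1804.1, 1614.8 and 1128.0 in dsUsh cells and 5169.1, 3775.5 and 3465.2 in dsEGFP cells. The highest dsUsh library held less than the lowest dsEGFP library. Its log2 fold change was -1.45 (standard error 0.24, limma adjusted p = 0.00171), or 2.74-fold lower.

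The genes on both sides of Idgf2 did not pass the threshold. Idgf3 had 23019.9, 21315.2 and 22897.9 normalised counts in dsUsh cells and 20627.7, 13794.5 and 15800.6 in dsEGFP cells. The dsUsh values were close together and all above the controls, of which replicate 1 was the highest. A log2 fold change of 0.44 (standard error 0.15) missed the threshold (limma adjusted p = 0.0518), and without dsEGFP replicate 1 it was 0.60 and passed (limma adjusted p = 0.00683). Idgf1 had 6801.3, 4944.4 and 7398.6 normalised counts in dsUsh cells and 7287.3, 3626.5 and 6437.6 in dsEGFP cells. Here replicate 2 was the lowest library in both groups and the ranges overlapped. For Idgf1 the change was 0.18 on the log2 scale (standard error 0.25, limma adjusted p = 0.617), and its sign turned with quantile normalisation (-0.013) and without dsEGFP replicate 2 (-0.12). CG5888, which overlaps Idgf1 and Idgf2, had a log2 fold change of 0.28 (limma adjusted p = 0.373).

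The remaining members were near the floor of detection. Idgf5 had 4, 51 and 8 reads in the dsUsh libraries and 1, 0 and 0 reads in the dsEGFP libraries, where a count of 0 allows up to 3 reads. Its reads were therefore more frequent in all 3 dsUsh libraries, but 1 library held most of them. The ratio of reads per size factor was 63.7, with a 95% exact interval of 11.0 to 2556 that covers counting error only. Without dsUsh replicate 2, an alternative added after seeing the data, it was 17.2 (95% interval 2.55 to 737). In the test over libraries Idgf5 missed the threshold (limma adjusted p = 0.0201), whereas DESeq2 on the recovered reads passed it (adjusted p = 0.00244). Idgf4 had 13.0, 9.1 and 2.1 normalised counts in dsUsh cells and 4.5, 2.1 and 2.1 in dsEGFP cells. These ranges overlapped (log2 fold change 1.02, standard error 0.60, limma adjusted p = 0.239).

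**Figure D2:**
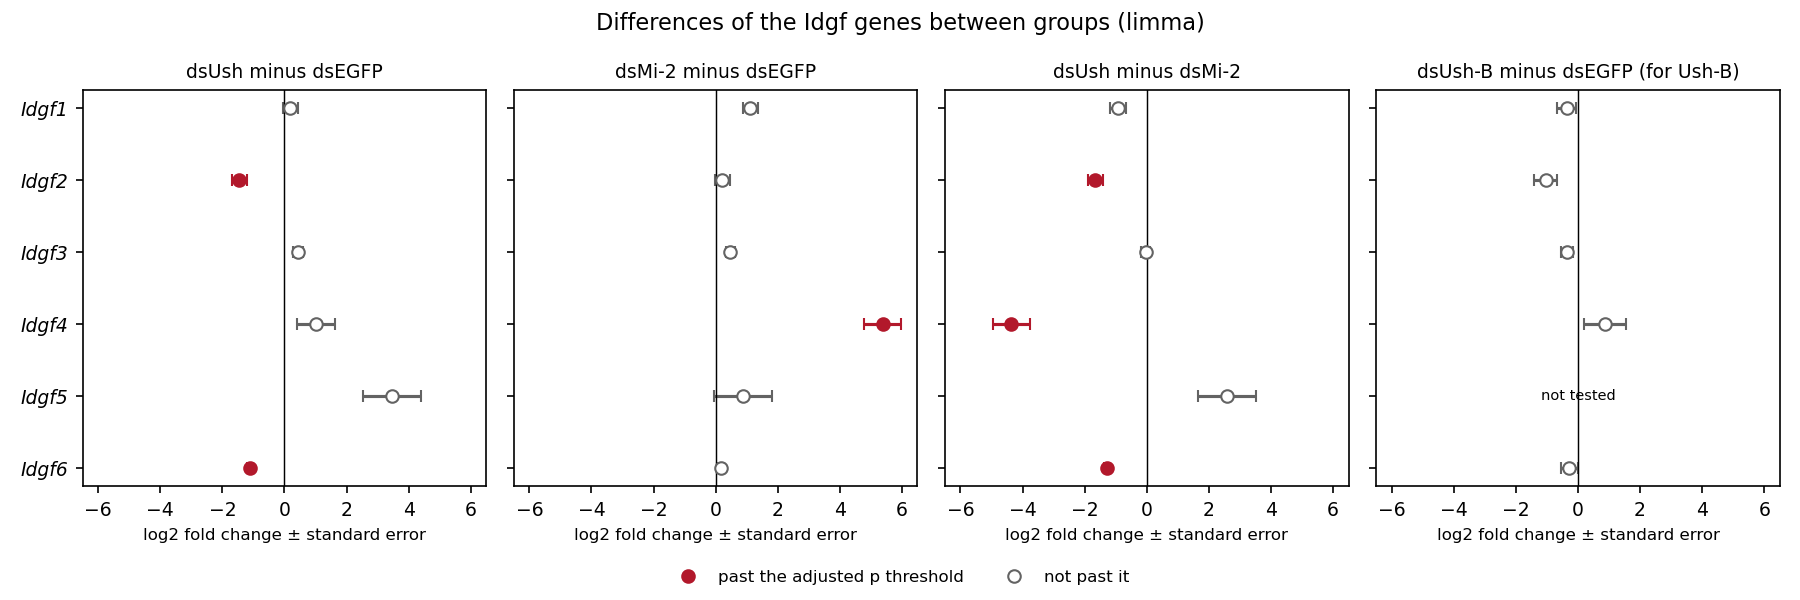
Log2 fold change of each Idgf gene with its standard error from limma, in the comparisons dsUsh minus dsEGFP, dsMi-2 minus dsEGFP, dsUsh minus dsMi-2 and dsUsh-B minus its dsEGFP control. Filled points passed the adjusted p threshold: Idgf2 (-1.45) and Idgf6 (-1.11) in the first panel, Idgf4 (5.38) in the second, and Idgf2 (-1.66), Idgf4 (-4.36) and Idgf6 (-1.28) in the third. The fit had no replicate block.

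As Idgf2 and Idgf6 fell, the reads on the family were spread differently over its members. Idgf3 took 51.1% to 53.2% of the Idgf reads in dsUsh cells, against 29.1% to 34.8% in dsEGFP cells. Idgf6 took 27.0% to 30.6% in dsUsh cells, against 44.2% to 54.9%, and Idgf2 took 2.62% to 4.01%, against 6.39% to 8.72%. None of these ranges overlapped. The share of Idgf1 was 12.3% to 17.2% in dsUsh cells and 7.71% to 12.3% in dsEGFP cells, and these ranges overlapped slightly at their ends. The shares count reads without regard to gene length, so they follow 1 gene across libraries and do not rank the genes. Summed over the 6 members, the normalised counts were 42787 ± 2398 in dsUsh cells and 53526 ± 6161 in dsEGFP cells (SD, n = 3 each), with no overlap (40267 to 45040 against 47029 to 59285).

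**Figure D3:**
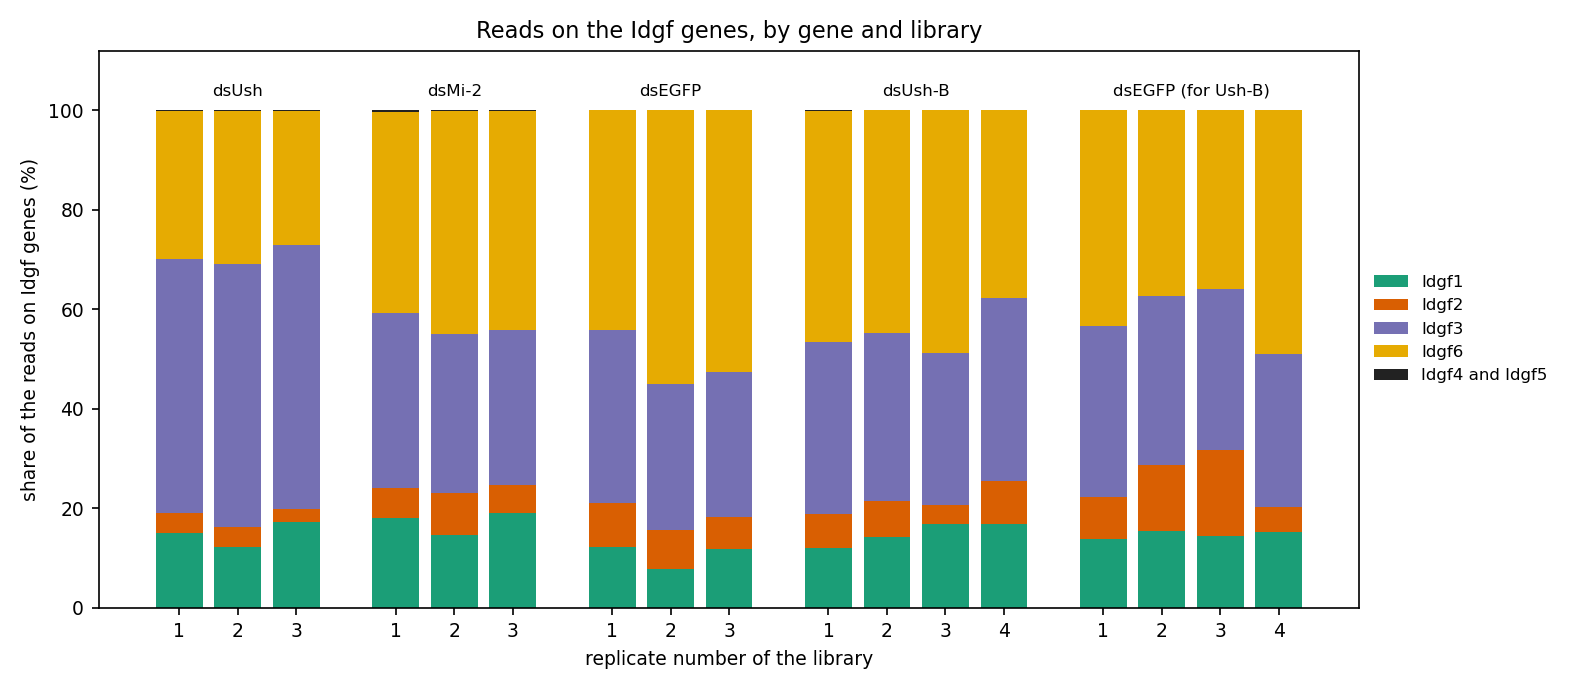
Share (%) of the reads on the 6 Idgf genes that fell on each gene, as 1 stacked bar per library, grouped as dsUsh, dsMi-2, dsEGFP, dsUsh-B and dsEGFP for Ush-B with the replicate number under each bar. The Idgf3 segment is taller in the 3 dsUsh libraries (51.1% to 53.2%) than in the dsEGFP libraries of that table (29.1% to 34.8%).

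Depletion of dMi-2 gave another pattern. Idgf4 rose, and 1 of the 6 members thus passed the threshold, against 6.29% of all tested genes in either direction and 4.34% as higher. With the replicate number as a block Idgf1 passed as higher too, so 2 of the 6 passed, beside 13.0% of all tested genes. The ranges of the groups did not overlap for Idgf1 and Idgf4, that is 2 of 6 members, where this held for 31.9% of all tested genes. The mean of Idgf4 came mostly from its dsMi-2 libraries (172, against 2.91 in dsEGFP and 8.08 in dsUsh cells). Its place in these counts may thus in part have been set by the filter.

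Idgf4, the member on the X chromosome, was barely present in control cells. It had 283.2, 134.3 and 98.4 normalised counts in the dsMi-2 libraries, against 4.5, 2.1 and 2.1 in the dsEGFP libraries. All dsMi-2 libraries lay far above all dsEGFP libraries, although the dsMi-2 libraries themselves differed by 2.88-fold. This was a log2 fold change of 5.38 (standard error 0.60, limma adjusted p = 0.000491). By reads, 528 in dsMi-2 cells against 9 in dsEGFP cells gave a ratio of 57.5 (95% exact interval 30.1 to 126, counting error only). Idgf4 still made up at most 0.404% of the Idgf reads of dsMi-2 cells.

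Idgf1 had 12615.9, 10966.8 and 12457.3 normalised counts in dsMi-2 cells and 7287.3, 3626.5 and 6437.6 in dsEGFP cells. All dsMi-2 libraries lay above all controls, and replicate 2 was again the lowest in both groups. Its log2 fold change of 1.11 (standard error 0.25) missed the threshold in the fit without a block (limma adjusted p = 0.0157). With the replicate number as a block it passed (adjusted p = 0.00114), as it did with DESeq2 on the recovered reads (adjusted p = 0.000471) and without dsEGFP replicate 1 (limma adjusted p = 0.00961). CG5888 had a log2 fold change of 0.37 (limma adjusted p = 0.335).

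Idgf3 had 24587.8, 24133.6 and 20528.3 normalised counts in dsMi-2 cells and 20627.7, 13794.5 and 15800.6 in dsEGFP cells. The ranges overlapped by a single control library, replicate 1. For Idgf3 the change was 0.48 on the log2 scale (standard error 0.15, limma adjusted p = 0.0639), and without that library it was 0.64 and passed (limma adjusted p = 0.00997). Idgf6 had 28268.4, 33676.1 and 28816.6 in dsMi-2 cells, against 26195.8, 25830.4 and 28557.4 in dsEGFP cells (log2 fold change 0.17, standard error 0.11, limma adjusted p = 0.369). Idgf2 had 4281.0, 6479.0 and 3749.9 in dsMi-2 cells and 5169.1, 3775.5 and 3465.2 in dsEGFP cells. For Idgf2 the groups lay on top of each other, with a log2 fold change of 0.21 (standard error 0.24, limma adjusted p = 0.656) that turned to -0.024 without dsMi-2 replicate 2. Idgf5 had 0, 3 and 2 reads in dsMi-2 cells, against 1, 0 and 0 in dsEGFP cells, which does not allow a direction to be given. The share of Idgf1 in the Idgf reads was 14.5% to 19.0% in dsMi-2 cells, above the 7.71% to 12.3% of dsEGFP cells. That of Idgf3 was 31.3% to 35.1%, against 29.1% to 34.8%, and that of Idgf6 was 40.4% to 44.7%, against 44.2% to 54.9%, and both of these overlapped. Summed over the members, the normalised counts were 70360 ± 4878 in dsMi-2 cells and 53526 ± 6161 in dsEGFP cells (SD, n = 3 each), again with no overlap.

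Both depletions share the dsEGFP libraries, so they were also set against each other directly. Idgf2, Idgf4 and Idgf6 were lower in dsUsh cells than in dsMi-2 cells, 3 of the 6 members, where 22.8% of all tested genes passed. With the replicate number as a block Idgf1 passed as lower too, where 3231 of all 9132 tested genes passed. For 5 of the 6 members the ranges did not overlap, against 52.1% of all tested genes. Among these 5, Idgf5 met the filter on the mean only through its dsUsh libraries, and the mean of Idgf4 came mostly from its dsMi-2 libraries. The place of Idgf5 was thus in part set by the filter, and that of Idgf4 may have been. Idgf4 averaged 8.08 ± 5.51 normalised counts in dsUsh cells and 172 ± 98.0 in dsMi-2 cells (SD, n = 3 each), a log2 fold change of -4.36 (standard error 0.60, limma adjusted p = 0.000465). Idgf2 averaged 1516 ± 349 in dsUsh cells and 4837 ± 1447 in dsMi-2 cells (log2 fold change -1.66, standard error 0.24, limma adjusted p = 0.000633). Idgf6 averaged 12447 ± 896 in dsUsh cells and 30254 ± 2977 in dsMi-2 cells (log2 fold change -1.28, standard error 0.11, limma adjusted p = 2.31e-05). Idgf1 averaged 6381 ± 1280 in dsUsh cells and 12013 ± 910 in dsMi-2 cells, and its log2 fold change of -0.93 passed only with the replicate block and some other alternatives (limma adjusted p = 0.015, and 0.00102 with the block). Idgf5 had 63 reads in dsUsh cells and 5 in dsMi-2 cells (limma adjusted p = 0.0546). Idgf3 had nearly equal means of 22411 ± 951 in dsUsh cells and 23083 ± 2224 in dsMi-2 cells (log2 fold change -0.04, standard error 0.15, limma adjusted p = 0.864).

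The 3 neighbours on 2L were compared with each other within each library, since a ratio of 2 genes of 1 library does not depend on its size factor. The log2 ratio of Idgf2 to Idgf3 was -4.34 to -3.67 in dsUsh cells and -2.19 to -1.87 in dsEGFP cells. The log2 ratio of Idgf1 to Idgf2 was 1.61 to 2.71 in dsUsh cells and -0.06 to 0.89 in dsEGFP cells. Both pairs of ranges were apart, so Idgf2 was low in dsUsh cells also relative to the genes beside it. In dsMi-2 cells the log2 ratio of Idgf1 to Idgf3 was -1.14 to -0.72, against -1.93 to -1.30 in dsEGFP cells, and here too the ranges were apart. Each of these 3 differences had p = 0.1 in a two-sided exact permutation test, the smallest value that 3 against 3 libraries can give. Adjusted over the 12 ratio comparisons that were made, p was 0.24, so none passed.

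**Figure D4:**
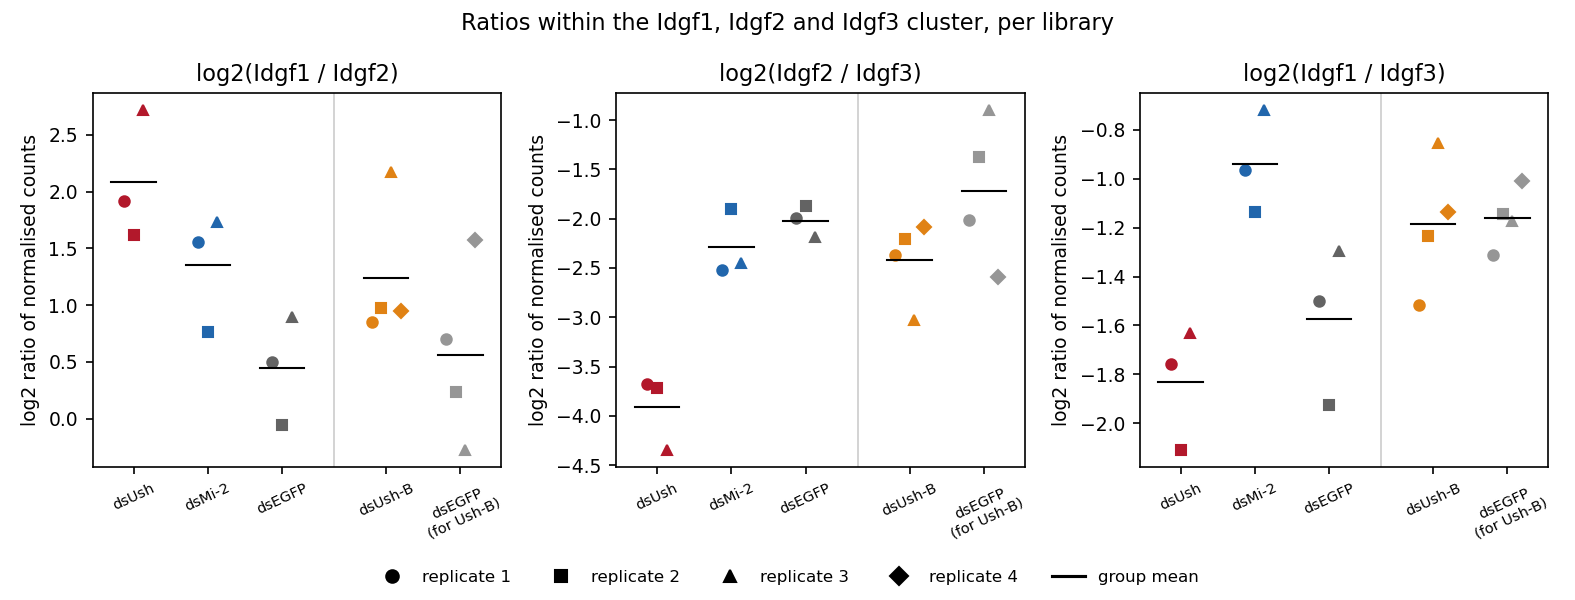
Log2 ratios of normalised counts between the neighbouring genes Idgf1, Idgf2 and Idgf3 in each library, by group, with symbols for the replicate number and bars for the group mean. In dsUsh cells the ratio of Idgf2 to Idgf3 lies at -4.34 to -3.67, below the dsEGFP range of -2.19 to -1.87, while the dsUsh-B libraries overlap their control.

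Depletion of isoform B alone was examined in the second table. None of the 5 members tested passed the threshold of an adjusted p under 0.05 in limma, nor with edgeR or DESeq2 on the recovered reads. Of all 9648 genes tested 1 passed in limma (0.0104%), 0 in edgeR and 91 in DESeq2. Before adjustment, 684 genes had a p under 0.05 in limma, and Idgf2 was the 1 member among them. The ranges overlapped for all 6 members, where 4.02% of all tested genes had no overlap. Idgf5 was under the filter, with 2, 5, 1 and 0 reads in dsUsh-B libraries and 1 read in each of the 4 controls.

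Idgf2 had 4955.1, 6397.4, 5675.3 and 8688.3 normalised counts in dsUsh-B replicates 1 to 4, against 8821.2, 15528.9, 26209.3 and 7860.1 in their dsEGFP controls. All but 1 of the dsUsh-B libraries lay below the lowest control, and the controls spread over a 3.33-fold range. The log2 fold change was -1.04 (standard error 0.36, limma adjusted p = 0.604, unadjusted p = 0.0177). Adjusted p ranged from 0.0677 with DESeq2 to 1 over the alternatives.

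The other abundant members also overlapped their controls. Idgf1 had 8959.8, 12569.2, 25579.5 and 16712.8 normalised counts in dsUsh-B cells and 14365.7, 18247.8, 21697.6 and 23449.7 in their controls. Idgf3 had 25619.5, 29549.4, 46260.2 and 36753.3 in dsUsh-B cells and 35645.0, 40273.3, 48954.5 and 47265.0 in the controls. Idgf6 had 34467.4, 39398.0, 73965.0 and 37551.6 in dsUsh-B cells and 45060.6, 43908.8, 54146.0 and 75269.4 in the controls. Replicate 3 was the highest dsUsh-B library for all 3 genes, and Idgf2 did not follow it. The log2 fold changes were -0.37 for Idgf1, -0.34 for Idgf3 and -0.27 for Idgf6, with standard errors of 0.30, 0.19 and 0.26 and limma adjusted p values of 0.831, 0.758 and 0.869. The shares of the Idgf reads overlapped as well, and Idgf3 had 30.5% to 36.9% in dsUsh-B cells and 30.7% to 34.3% in their controls. Idgf4 had 12.7, 4.9, 2.4 and 9.4 normalised counts in dsUsh-B cells and 9.2, 1.0, 5.6 and 0.9 in the controls (log2 fold change 0.87, standard error 0.68, limma adjusted p = 0.83). Since the dsUsh and dsUsh-B libraries stand in tables normalised separately, the difference between the 2 depletions was not tested.

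Lists of chitinases, of other secreted growth factors and of chitin genes were followed beside the Idgf genes. Of 10 chitinase genes 7 were tested, and 2 passed in dsUsh cells, both higher, where 17.2% of all tested genes passed and 12.3% passed as higher. Cht2 averaged 1968 ± 206 normalised counts in dsUsh cells and 6.17 ± 2.53 in dsEGFP cells (SD, n = 3 each; log2 fold change 8.15, limma adjusted p = 3.51e-07), and Cht10 had a log2 fold change of 1.97 (limma adjusted p = 0.0036). The median log2 fold change of the 7 was 0.88, against -0.01 over all genes tested. With the replicate block 4 of the 7 passed, adding Cht11 (log2 fold change 0.81) and Cht6 (-0.81), where 28.5% of all tested genes passed with the block. The call of Cht10 was lost without dsUsh replicate 1, 2 or 3, without dsEGFP replicate 2, with quantile normalisation and with only the 2 groups compared in the fit. In dsMi-2 cells 0 of 7 chitinases passed in limma, with 1 at an unadjusted p under 0.05, and 0 passed with the block, edgeR or DESeq2. Of all 9132 tested genes, 2505 had an unadjusted p under 0.05 in dsMi-2 cells. In dsUsh-B cells 0 of 7 passed in limma, edgeR and DESeq2, with 0 at an unadjusted p under 0.05. Idgf genes and these chitinases were not tested against each other.

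The next list held the adenosine deaminase-related growth factors, which break down extracellular adenosine, and the adenosine receptor gene AdoR. Of its 7 genes 3 were tested, all of them growth factors. Adgf-A averaged 24497 ± 2123 normalised counts in dsUsh cells and 2377 ± 1083 in dsEGFP cells (SD, n = 3 each; log2 fold change 3.46, limma adjusted p = 3.52e-05). Adgf-A2 had a log2 fold change of 3.10 (limma adjusted p = 6.8e-05), so 2 of 3 rose, beside the 12.3% of all tested genes that passed as higher. In dsMi-2 cells 0 of 3 passed in limma and edgeR, with log2 fold changes of -0.28 for Adgf-A, -0.77 for Adgf-A2 and 2.75 for Adgf-D (limma adjusted p = 0.622, 0.138 and 0.0336). Adgf-D averaged 25.1 ± 8.60 normalised counts in dsMi-2 cells and 4.15 ± 3.73 in dsEGFP cells without overlap, and it passed as higher with DESeq2. In dsMi-2 cells 2 of the 3 had an unadjusted p under 0.05, as did 2505 of all 9132 tested genes. In dsUsh-B cells 0 of 4 passed with limma, edgeR or DESeq2, and 1 had an unadjusted p under 0.05.

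Of 14 genes for chitin synthesis and chitin matrix, 8 were tested and 2 rose in dsUsh cells, again beside 12.3% of all tested genes. CS-2, a chitin synthase, averaged 5289 ± 3008 normalised counts in dsUsh cells and 11.4 ± 2.26 in dsEGFP cells (SD, n = 3 each; log2 fold change 8.59, limma adjusted p = 1.15e-06). The gene mmy, whose product makes the activated sugar used for chitin, had a log2 fold change of 0.79 (limma adjusted p = 0.000793). The median of the 8 was 0.59 in dsUsh cells. In dsMi-2 cells 1 of 8 passed, obst-A, a chitin-binding protein of the cuticle (log2 fold change 2.80, limma adjusted p = 0.00646), where 6.29% of all tested genes passed. It averaged 20.8 normalised counts in dsMi-2, 2.00 in dsEGFP and 6.23 in dsUsh cells. It thus met the filter on the mean only through its dsMi-2 libraries, and its call was in part set by the filter. In the same comparison knk, which takes part in ordering chitin fibres, had a log2 fold change of 2.56 (40.4 ± 18.4 normalised counts in dsMi-2 cells and 5.71 ± 2.28 in dsEGFP cells). It missed the threshold in limma (adjusted p = 0.0107) and passed with the block, edgeR and DESeq2. The call of obst-A was lost when any 1 of the dsMi-2 or dsEGFP libraries, or dsUsh replicate 1, was left out. It was also lost with quantile normalisation and with only the 2 groups compared in the fit.

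**Figure D5:**
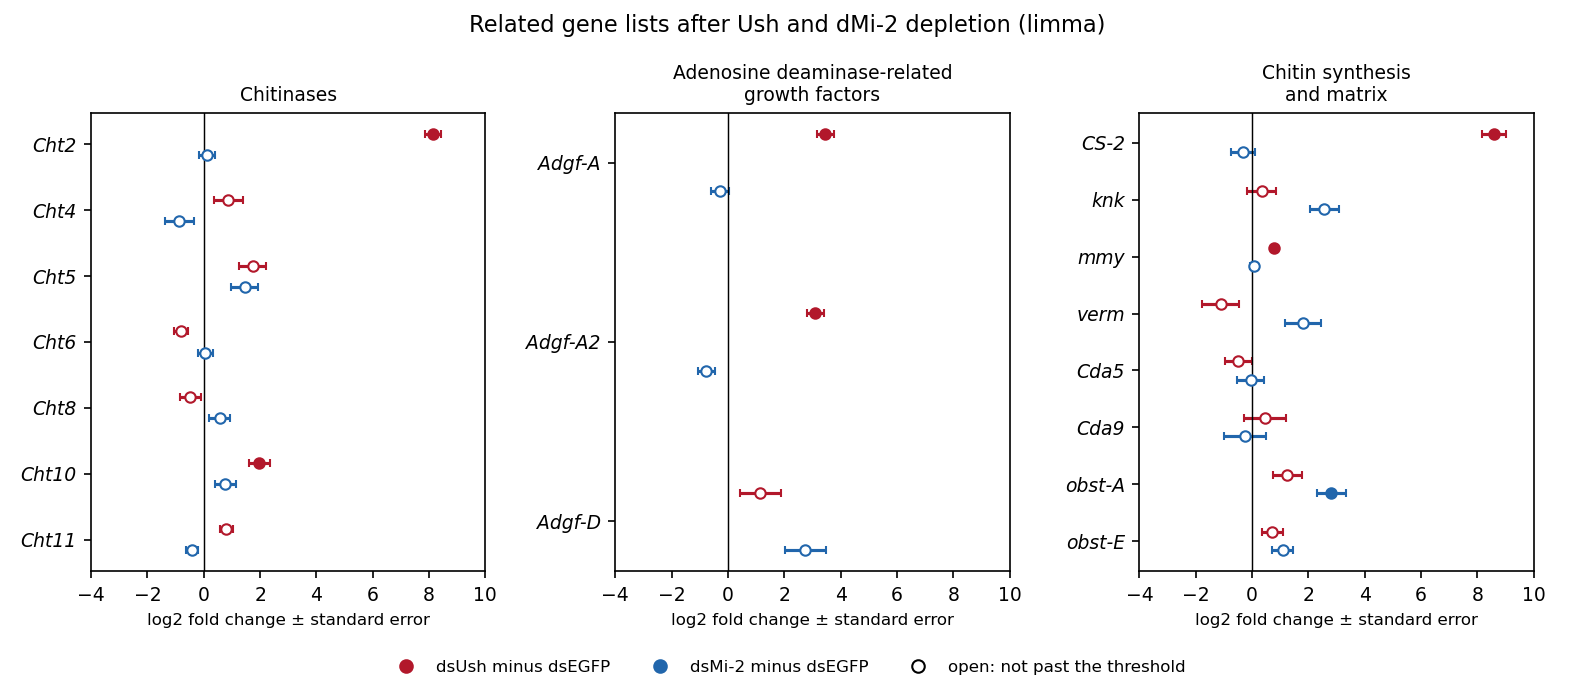
Log2 fold changes with standard errors (limma) of the tested chitinase genes, adenosine deaminase-related growth factors and chitin genes, dsUsh minus dsEGFP in red and dsMi-2 minus dsEGFP in blue, with open points for genes not past the threshold. Cht2 (8.15) and CS-2 (8.59) lie far to the right in dsUsh cells and near 0 in dsMi-2 cells.

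Idgf proteins act together with insulin in culture, so the insulin pathway was followed too. Of 24 genes 16 were tested, and 3 passed in dsUsh cells, where 17.2% of all tested genes did. In dsUsh cells Pi3K21B, the regulatory subunit of the lipid kinase of the pathway, rose (log2 fold change 1.80, limma adjusted p = 0.000438). The insulin-like peptide gene Ilp6 fell (-0.53, limma adjusted p = 0.00194), as did ImpL2, whose secreted product binds and inhibits insulin-like peptides (-2.03, limma adjusted p = 0.00214). Both of these calls were lost without dsUsh replicate 3 (adjusted p = 0.0114 and 0.0103). The median of the 16 was 0.16, and 6 passed with the replicate block, adding foxo (0.47), S6k (0.56) and Pdk1 (-0.39), beside 28.5% of all tested genes. The receptor gene InR had a log2 fold change of 0.25 (limma adjusted p = 0.544). In dsMi-2 cells 1 of 16 passed, Ilp6 (-0.47, limma adjusted p = 0.00813), beside 1.95% of all tested genes that passed as lower, and this call held in 8 of 22 alternatives. With the block Pdk1 (-0.59) passed as well, and 13.0% of all tested genes passed. In dsUsh-B cells 0 of 17 insulin genes passed with limma, edgeR or DESeq2, and 1 had an unadjusted p under 0.05. For the chitin list it was 0 of 10, with 0 at an unadjusted p under 0.05.

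Markers of blood cell types and of the fat body, both known sources of Idgf proteins, were set beside these values. Of 8 plasmatocyte markers 7 were tested, and 3 passed in dsUsh cells, where 17.2% of all tested genes passed. Of these, eater was lower, at 5.76 ± 4.38 normalised counts against 174 ± 69.7 in dsEGFP cells, and crq and He were higher. The median of the 7 was -0.49, and 6 had an unadjusted p under 0.05, as did 3704 of all 9132 tested genes. Hml, Pxn and srp had log2 fold changes of -1.67, -0.68 and -0.49, with every dsUsh library below every dsEGFP library, and missed the threshold (limma adjusted p = 0.0191, 0.0638 and 0.0189). Ranges were apart for 43.4% of all tested genes. With the block Hml and srp passed as lower, so that 5 of the 7 passed, 3 of them lower and 2 higher. Of all tested genes, 28.5% passed with the block. The call of He was lost without dsUsh replicate 2 (limma adjusted p = 0.0266) or 3 (0.0289), without any 1 dsMi-2 library and with only the 2 groups compared in the fit. It was also lost with a pseudocount of 0.5, with quantile normalisation and without the mean trend. In dsMi-2 cells eater alone passed in limma, at 11.1 ± 1.92, beside 6.29% of all tested genes, and DESeq2 also passed He. There He, crq and Hml had log2 fold changes of 3.25, 0.52 and -1.58 and ranges apart from the controls. They missed the threshold in limma (adjusted p = 0.0156, 0.0472 and 0.044). In dsMi-2 cells 4 of the 7 had an unadjusted p under 0.05, as did 2505 of all 9132 tested genes. Ranges were apart there for 31.9% of all tested genes. The summed normalised counts of the plasmatocyte markers were 30534 to 33938 in dsUsh cells, 19182 to 22731 in dsMi-2 cells and 13397 to 18211 in dsEGFP cells, and these sums follow crq, which held most of them. The defining marker NimC1 was at or near 0, with at most 2.98 normalised counts in any library of the first table. Of 3 lamellocyte markers 2 were tested, and mys was higher in dsUsh cells (log2 fold change 0.99), beside 12.3% of all tested genes that passed as higher. The gene mys was already abundant in dsEGFP cells, at 29461 ± 4067 normalised counts against 58328 ± 685 in dsUsh cells. The third, atilla, was under the filter. It had 5.34 to 19.3 normalised counts in the dsUsh libraries and 0 in every dsEGFP library. In dsMi-2 cells mys and PPO3 had log2 fold changes of -0.52 and 0.70, each without overlap and with an unadjusted p under 0.05. They missed the threshold in limma (adjusted p = 0.0207 and 0.0495) and edgeR. Both passed with the block, beside 13.0% of all tested genes, and mys passed with DESeq2. Of 3 crystal cell markers 2 were tested. In dsUsh cells 0 passed in limma and edgeR (1 at an unadjusted p under 0.05), while lz passed as higher with the block and with DESeq2. It averaged 22.1 ± 29.1 normalised counts in dsUsh cells (5.21 to 55.7) and 0.35 ± 0.60 in dsEGFP cells (limma adjusted p = 0.0188). It met the filter on the mean only through its dsUsh libraries. In dsMi-2 cells 0 passed with limma, the block, edgeR or DESeq2, with 0 at an unadjusted p under 0.05. Of 10 fat body markers 3 were tested and 0 passed in limma and edgeR in dsUsh or dsMi-2 cells, with 0 and 1 at an unadjusted p under 0.05. They summed to 34.1 to 42.5 normalised counts in dsUsh cells, 68.6 to 150 in dsMi-2 cells and 45.8 to 48.9 in dsEGFP cells, with Lsp1alpha and Lsp2 at 0 in all of these libraries. Yp3 passed in dsMi-2 cells with the block and with DESeq2. In dsUsh-B cells no marker passed with limma, edgeR or DESeq2, and 1 of the plasmatocyte markers had an unadjusted p under 0.05. The part of these markers in the Idgf values was not tested. Whether each marker is confined to its cell type was not tested either. The paper cites the view that Serpent (srp) acts with Ush in hemocyte progenitors.

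For the 3 members past a threshold, the genes with the most similar profile were sought over the 17 libraries, by the root mean square difference of log2 values after each table's mean had been subtracted. Among 6998 genes, Idgf6 was closest to Nnf1a (0.240), a kinetochore gene, ND-20 (0.241), a gene of mitochondrial complex I, and Poc1 (0.256), a centriole gene. Their log2 fold changes were -0.90, -1.12 and -0.90 in dsUsh cells and 0.12, -0.06 and -0.03 in dsMi-2 cells. Idgf2 was closest to Prosap (0.422), spir (0.434) and kek1 (0.444), which encode a scaffold protein of synapses, an actin nucleator and an inhibitor of the EGF receptor. Their log2 fold changes were -1.13, -1.03 and -2.04 in dsUsh cells and -0.80, -1.18 and -1.17 in dsUsh-B cells, where Idgf2 had -1.45 and -1.04. In dsMi-2 cells they had 0.86, 0.21 and 0.08, and Idgf2 had 0.21. Idgf4 was closest to CG5080 (0.828), Arpc3B (0.863), a gene for a subunit of the Arp2/3 complex, and CG4267 (0.869), with log2 fold changes of 5.11, 3.77 and 4.07 in dsMi-2 cells. For scale, the root mean square of a member's own profile was 0.501 for Idgf6, 0.773 for Idgf2 and 1.90 for Idgf4. The similar genes were chosen for their likeness over the same libraries, so their fold changes describe the profiles and carry no test here.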

How the data were processed

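RNA-seq of S2 cells was analysed in 17 libraries, and the 4 ChIP-seq samples were not analysed here. The authors prepared libraries with a stranded mRNA kit, aligned single reads to the Drosophila transcriptome with STAR, counted them with featureCounts (version 1.6.2 in the submitters' processing notes) and scaled each library's counts with a DESeq2 size factor. The deposited signal values are these normalised counts. The build and annotation used for them are not given in the sources used here. Every value was a whole multiple of 1 step per library (100%, tolerance 0.05), so whole reads were recovered. Deposited fold changes and p-values of the authors' own comparisons were not used.

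Tests used limma 3.58.1 in R 4.3.3 with a mean trend, a pseudocount of 1 and a minimum mean of 5, and were tested on simulated data. All 9 libraries of the first table entered 1 fit. Fold changes on this log scale understate low genes. edgeR 4.0.16, DESeq2 1.42.0, other scalings, filters, pseudocounts, a replicate block and leaving out each library were alternatives (22 in the first table, 21 in the second). The replicate numbers in the labels were checked as pairs. In the first table same-numbered libraries deviated together in all 9 pairs (correlations 0.239 to 0.569), so there the block counts as a pairing. The reported calls and the figures come from the fit without this block. The methods state 3 independent transfections for RNA-seq, whereas the second table holds 4 libraries per group, so what separates its replicates is not known, and its p-values measure the spread between these libraries, which may be technical.

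Genes reported by name were the 6 members, ush and Mi-2, the 3 most similar genes of each member past a threshold, and per list and comparison at most 3 genes with the largest change past the threshold. Genes that overlap a member, and genes named for a value that missed the threshold or passed only in an alternative, were added after their values were seen. The members and the gene lists were chosen with earlier results of these data known. Shares of reads replace the planned levels per length, since only gene spans were at hand. Names of 17682 genes were found in the RefSeq table, which served for names and neighbours only. No library was a copy of another.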

Additional observations from a re-analysis of the deposited data

Results flagged for a closer look

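Among the groups of 4 libraries, 22 sets of values were examined for a library far from the others, of which chance flags about 1 in 20, and 1 was found. Idgf6 had 73965 normalised counts in dsUsh-B replicate 3, while the other dsUsh-B libraries had 34467 to 39398. The effects of the depletions of Ush and dMi-2 differed in the direct test for 3 members, with log2 differences (dsUsh minus dsMi-2) of -1.66 for Idgf2, -4.36 for Idgf4 and -1.28 for Idgf6.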

How the results depend on the processing

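The falls of Idgf2 and Idgf6 in dsUsh cells, the rise of Idgf4 in dsMi-2 cells and the 3 differences between dsUsh and dsMi-2 cells (Idgf2, Idgf4 and Idgf6) kept their direction and passed in all 22 alternatives, with log2 fold changes of -1.59 to -1.25, -1.28 to -1.06, 3.69 to 5.86, -1.83 to -1.43, -4.80 to -3.25 and -1.48 to -1.20. The count of Idgf genes past the threshold in dsMi-2 cells was 1 and became 2 (Idgf1 and Idgf4) with the replicate block, with DESeq2 and at an adjusted p under 0.05. Leaving out 1 library gave 1 to 3, with 3 (Idgf1, Idgf3 and Idgf4) without dsEGFP replicate 1. The count in dsUsh cells stayed at 2 or 3, that between dsUsh and dsMi-2 cells at 3 or 4, and that in dsUsh-B cells at 0. Signs turned for Idgf1 in dsUsh cells (-0.013 with quantile normalisation, and -0.12 to 0.38 with 1 library left out, the lowest without dsEGFP replicate 2), for Idgf3 between dsUsh and dsMi-2 cells (0.0090 without dsMi-2 replicate 1), for Idgf2 in dsMi-2 cells (-0.024 to 0.38 with 1 library left out, the lowest without dsMi-2 replicate 2) and for ush in dsUsh-B cells (-0.26 to 0.0095 with 1 library left out, the highest without dsUsh-B replicate 3). None of these had passed. Idgf5 could not be tested with a filter at a mean of 50 or without dsUsh replicate 2, being under the filter.

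Over all genes, 1567 passed in dsUsh cells, 2601 with the replicate block, 2679 at an adjusted p under 0.05 and 1008 without dsUsh replicate 3. In dsMi-2 cells 574 passed, 1187 with the block, 1094 with DESeq2, 1275 at an adjusted p under 0.05, 307 with only the 2 groups in the fit and 292 to 587 with 1 library left out (322 without dsEGFP replicate 2, 296 and 292 without dsMi-2 replicates 2 and 3). Between dsUsh and dsMi-2 cells 2082 passed, 3231 with the block, 3345 at an adjusted p under 0.05 and 1387 without dsUsh replicate 3. In dsUsh-B cells the count was 1, 0 with the replicate block and most other alternatives, 4 without replicate 1 of its dsEGFP control and 91 with DESeq2. In that table the numbers were not taken as pairs, since the correlations of the 4 same-numbered pairs ran from -0.0486 to 0.660. Only 4 of its 8 libraries correlated best with their own number (replicates 1 and 2 of each group), while control replicate 3 did so with dsUsh-B replicate 4 (0.517) and control replicate 4 with dsUsh-B replicate 3 (0.762). The labels give no such pairing, and none was fitted. In dsUsh cells, the median of all genes (log2) became -0.12 with upper-quartile scaling and -0.20 with quantile normalisation, and the share of higher genes among those called, 71.8% in the reported fit, became 57.0% and 47.5%. Between dsUsh and dsMi-2 cells the median became -0.16 and -0.13, and that share 46.8% and 47.4%, against 63.5% in the reported fit. Idgf5, and Idgf4 outside dsMi-2 cells, had so few reads that only large changes of these genes could be measured. The cause of these changes with the processing was not tested.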
